A study of Arabidopsis thaliana with 6 samples.

Results

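The genes described here encode TIR-domain intracellular immune proteins of *Arabidopsis thaliana*, taken from a list of 60 loci of the TIR, TIR-NBS and TIR-NBS-LRR classes. A locus was kept where GEO's annotation of the array named it as the only gene of a probe set, and this left 46 measured genes of 60 listed, among 13355 genes tested in all. The other 14 loci had no probe set naming them alone. They include CHS1, WRR4, RLM1, RLM3, RMG1, VICTR, the TIR-KASH gene TIK and the gene named TIR, and they are not analysed here singly.

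Whole seedlings 10 days old were harvested after 1 h with 20 nM purified protease IV, a serine protease secreted by the bacterium *Pseudomonas aeruginosa* PA14, or as mock controls, which the sample titles call nontreated. There were 3 arrays a group, numbered as biological replicates in the titles. All seedlings were kept in liquid medium in 24-well plates and were given fresh medium on day 8. The labels give no genotype or ecotype and do not say how wells were divided among replicates. The limma p-values and SE thus rest on the spread among these 3 and 3 arrays, part of which may be technical. They are moderated: limma draws each gene's variance toward that of all genes. For genes with widely spread arrays, the SE is therefore smaller than those arrays alone would give.

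The TIR (Toll/interleukin-1 receptor) domain is an enzymatic fold. Plant TIR domains cleave NAD+ and produce small signalling molecules that act through the EDS1 protein family and helper receptors. In the full-length class, TIR-NBS-LRR, a leucine-rich repeat region senses pathogen effectors and a nucleotide-binding (NBS) region works as a switch. The TIR-NBS class lacks the repeats, and the TIR-only class lacks both regions. Domain classes given here come from general knowledge of the family, not from the tables used; 10 measured genes were taken as TIR-only, 10 as TIR-NBS and 21 as TIR-NBS-LRR, and 5 were left without a class.

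Of the 46 genes, 19 rose, 3 fell and 24 did not pass the threshold (limma, adjusted p under 0.05). Over all genes tested 11.4% rose and 22.8% fell, against 41.3% and 6.52% of the TIR-domain genes. The balance over all genes turned with the scaling: with cyclic loess between arrays, 2060 of the 13355 genes rose and 1514 fell, and 21 of the 46 rose and 3 fell. Either direction was called in 22 of the 46, or 47.8%, against 34.2%. All 3 treated arrays lay above all 3 mock arrays in 19 genes and below them in 3, where the backgrounds were 14.7% and 31%. A rise of at least 2-fold was measured in 12 of the 46, or 26.1%, where the background was 4.51%. Rises of at least 8-fold numbered 5, or 10.9%, against 1.06% of all genes. The median difference was 0.14 on the log2 scale for the 46 and -0.06 for all genes. The members were listed with earlier results of these data known, so these shares are a description of the list.

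**Figure D1:**
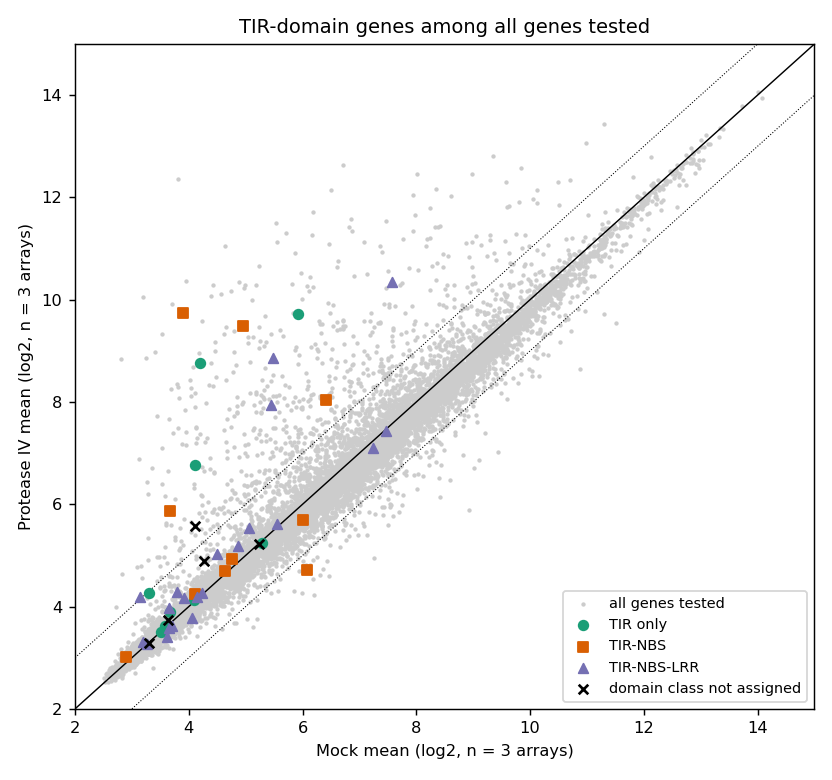
Mean of the 3 protease IV arrays (vertical axis) against mean of the 3 mock arrays (horizontal axis), log2 expression, for all 13355 genes (grey) and the 46 TIR-domain genes (symbols by domain class); the solid line marks equal means and the dotted lines 2-fold differences. The 12 genes above the upper dotted line belong to all 3 domain classes and 1 has no class, and 1 TIR-NBS gene, AT1G72890, lies below the lower dotted line.

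Because the RNA came from whole seedlings, a change in the number of expressing cells and a change in RNA per cell cannot be told apart. The seedling label was checked with marker genes. Of 4 measured leaf markers, the mock means were 9.58 to 14.07, and the 2 measured root markers stood at 12.63 (PYK10) and 5.78 (AT5G66390). All 4 pollen markers had both group means below 3.97, the smallest of the 6 arrays' lower quartiles, called the low-signal level from here on. Of the leaf markers 3 fell, LHCB4.2 by the most with a difference of -0.77, and 0 of 2 root markers passed. Falls were called in 22.8% of all genes. The array medians were 6.07 to 6.13. The difference between 3-prime and 5-prime probe sets, a sign of RNA integrity, overlapped between groups in 4 of 6 control pairs. It was larger after protease IV without overlap in the other two, for GAPDH at 0.89 ± 0.11 against 0.73 ± 0.077 and for the second actin pair at 1.81 ± 0.28 against 1.58 ± 0.0077 (log2, SD, n = 3 each; exact permutation p = 0.1 for both, the smallest the design allows). Its part in the results was not tested.

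The largest rise of the family was in AT1G66090, of the TIR-NBS class. Its mock arrays read 3.92, 4.02 and 3.77, and its protease IV arrays read 10.12, 9.35 and 9.74 (log2 expression). All 3 treated arrays stood far above all 3 mock arrays. The difference was 5.83 (SE 0.16), or 57.0-fold (limma, adjusted p = 9.36e-10), the 10th largest rise among all genes tested. Its mock mean, 3.90, lay under the low-signal level, where array signals are compressed.

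A second TIR-NBS gene, AT1G72900, read 4.79, 5.14 and 4.95 in mock and 9.46, 9.44 and 9.56 after protease IV. The treated arrays were close to each other and far above the mock arrays. The difference of 4.53 (SE 0.096; limma, adjusted p = 1.67e-10) was 23.1-fold and ranked 44th. AT3G04210 of the same class read 3.64, 3.52 and 3.85 in mock and 5.91, 5.73 and 5.98 after protease IV, a difference of 2.20 (SE 0.10) from mock arrays that all lay under the low-signal level. AT1G72940, also TIR-NBS, read 6.37, 6.56 and 6.31 and then 8.04, 7.95 and 8.13, a difference of 1.63 (SE 0.089). In all 4 of these genes the groups did not overlap.

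The only fall of at least 2-fold among the 46 was also in a TIR-NBS gene. AT1G72890 read 6.13, 6.11 and 5.98 in mock and 4.55, 4.71 and 4.88 after protease IV. Every treated array stood below every mock array, and the difference was -1.36 (SE 0.096; limma, adjusted p = 1.42e-06), a 2.57-fold fall. Falls of that size were called in 1.17% of all genes. Of the 10 measured TIR-NBS genes, 4 rose, this gene fell and 5 did not pass. The shares over all genes were 11.4% for rises and 22.8% for falls.

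Genes with a TIR domain alone gave 4 rises and 0 falls among 10, where 11.4% of all genes rose and 22.8% fell. AT1G57630 read 4.31, 4.14 and 4.15 in mock and 8.89, 8.59 and 8.78 after protease IV, a difference of 4.56 (SE 0.094) or 23.5-fold (limma, adjusted p = 1.45e-10). It differed from AT1G72900 in the size of its rise by only 0.03, less than either standard error. AT5G44910 read 5.78, 5.91 and 6.08 in mock and 9.65, 9.56 and 9.93 after protease IV, a 13.8-fold rise. AT2G20142 read 3.95, 4.34 and 4.04 in mock and 6.65, 6.71 and 6.96 after treatment, a difference of 2.66 (SE 0.12). The fourth, AT2G32140, rose by 0.97 (SE 0.14; limma, adjusted p = 0.000422), just under 2-fold. Its mock arrays all lay under the low-signal level, and its treated mean was 4.27. All of these groups were free of overlap. The other 6 TIR-only genes did not pass, with differences of -0.05 to 0.21. In 4 of these both group means lay under the low-signal level, where a change could be missed.

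Of the 21 genes of the full-length TIR-NBS-LRR class 9 rose, 4 of them at least 2-fold, and 2 fell. Over all genes 11.4% rose, 4.51% at least 2-fold, and 22.8% fell. AT5G22690 read 5.53, 5.40 and 5.49 in mock and 8.93, 8.69 and 8.92 after protease IV, a difference of 3.38 (SE 0.087) or 10.4-fold (limma, adjusted p = 5.99e-10). AT5G58120 read 7.70, 7.60 and 7.41 in mock and 10.39, 10.34 and 10.34 after protease IV. Its 3 treated arrays were nearly equal, and the difference was 2.79 (SE 0.086), or 6.90-fold, from a mock mean of 7.57. AT1G63750 read 5.39, 5.34 and 5.63 and then 8.03, 7.64 and 8.18, a difference of 2.50 (SE 0.14). AT1G56540 read 3.26, 3.33 and 2.85 in mock and 4.32, 3.82 and 4.43 after protease IV, a difference of 1.04 (SE 0.17; limma, adjusted p = 0.000675). Its mock arrays all lay under the low-signal level and 1 treated array did too, and the rise was 0.89 without mock replicate 3, 0.98 without protease IV replicate 1 and 0.92 without protease IV replicate 3, each still past the threshold.

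**Figure D2:**
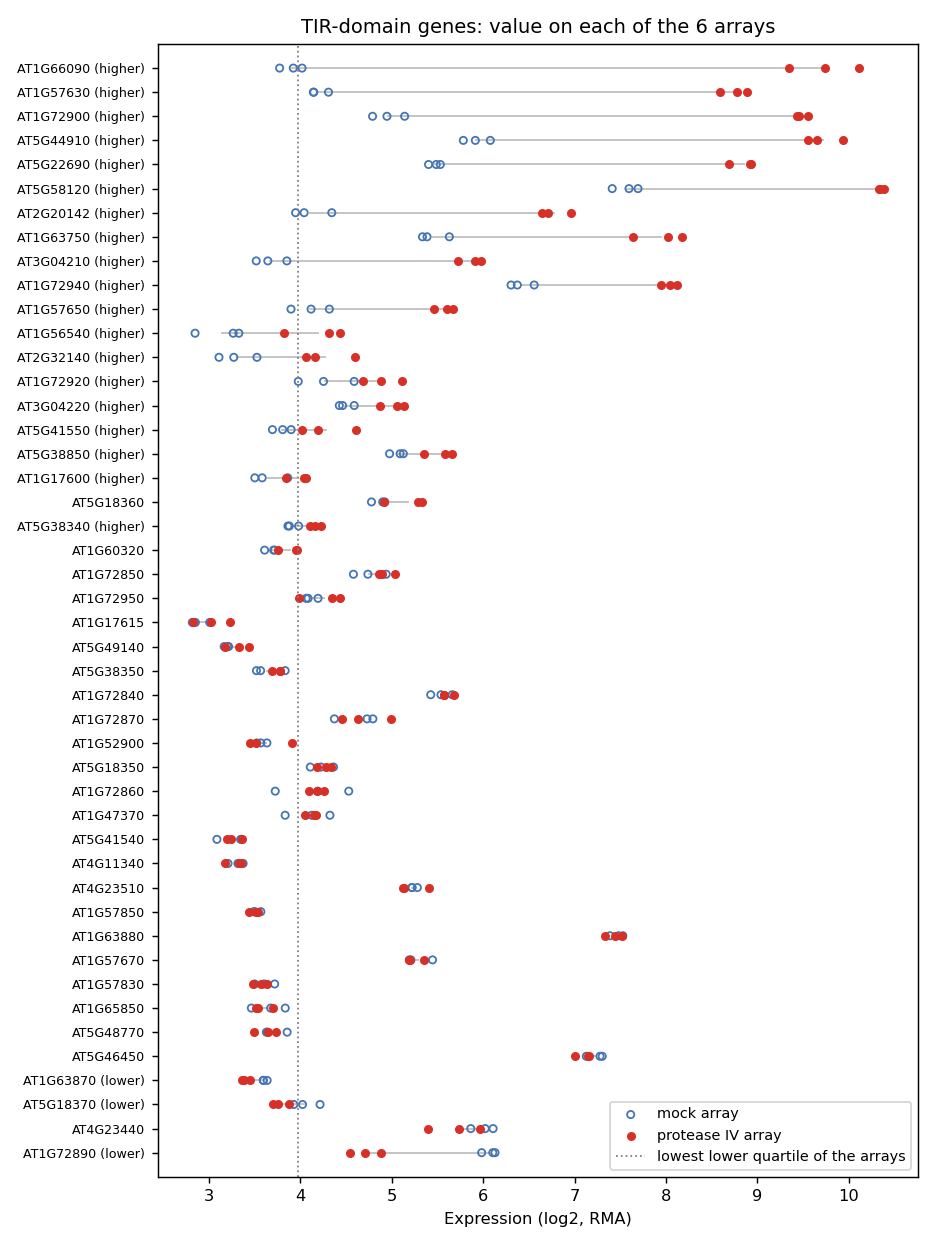
Log2 expression (horizontal axis) of each of the 46 TIR-domain genes (rows, ordered by difference) on every array, with mock arrays as open blue circles and protease IV arrays as filled red circles; grey lines join the group means and the dotted line is the low-signal level, 3.97. The 12 upper rows show rises from 1.04 to 5.83 with no overlap of groups, and the bottom row, AT1G72890, has a difference of -1.36.

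Smaller rises in the full-length class were measured in 5 genes. AT3G04220 rose by 0.53, AT5G41550 by 0.48, AT5G38850 by 0.47, AT1G17600 by 0.33 and AT5G38340 by 0.26, with adjusted p-values in limma of 0.000972 to 0.0340. Mock means of AT5G41550, AT1G17600 and AT5G38340 lay under the low-signal level, and the treated mean of AT1G17600, 3.98, was barely above it. The groups of AT1G17600 overlapped, and its call ended when replicate 1 or 3 of mock, or 1 or 2 of protease IV, was left out. Leaving out replicate 1 of either group, or replicate 2 of mock, ended the call of AT5G38340, and leaving out replicate 1 of mock ended that of AT5G41550. The 2 falls were small: AT5G18370 fell by 0.28 and AT1G63870 fell by 0.21 (limma, adjusted p = 0.0393 and 0.0383), and neither call held when replicate 1 or 3 of mock, or 2 or 3 of protease IV, was left out. The call of AT1G63870 also ended without replicate 2 of mock. Both group means of AT1G63870 and the treated mean of AT5G18370 lay under the low-signal level.

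Of the 5 genes without a domain class, AT1G57650 read 4.32, 3.90 and 4.12 in mock and 5.61, 5.67 and 5.46 after protease IV. The groups did not overlap, with a difference of 1.47 (SE 0.11; limma, adjusted p = 2.20e-06). AT1G72920 rose by 0.62 (SE 0.15; limma, adjusted p = 0.00891), and the other 3 did not pass.

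The 24 genes that did not pass had differences from -0.30 to 0.31 on the log2 scale. Of these, 11 had both group means under the low-signal level, where a change could be missed. Others were measured clear of that level: AT1G63880 stood at 7.47 ± 0.072 in mock and 7.43 ± 0.095 after protease IV, and AT5G46450 at 7.24 ± 0.094 and 7.10 ± 0.083 (SD, n = 3 each), both TIR-NBS-LRR genes. Nearest to the threshold were AT5G18360, with a difference of 0.31 (limma, adjusted p = 0.0537), and AT1G60320 with 0.21 (limma, adjusted p = 0.0740). Both group means of AT1G60320, 3.68 and 3.89, lay under the low-signal level. An unadjusted p under 0.05 in limma was reached by 3 of the 24. Over all 13355 genes it was reached by 5597, of which 4564 also passed the adjusted threshold.

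Many TIR genes lie side by side in the genome, and each group with more than 1 measured gene is given here; differences between neighbours were not tested. Members separated by at most 3 other genes in RefSeq's TAIR10.1 annotation were grouped, which gave 13 groups of 2 to 11 loci. The longest, on chromosome 1, runs from AT1G72840 to AT1G72950 with 11 loci, of which 9 were measured. In it 3 genes rose, 1 fell and 5 did not pass, where 11.4% of all genes rose and 22.8% fell. AT1G72890 and AT1G72900 are immediate neighbours, and the difference was -1.36 in the first and 4.53 in the second. AT1G72840, AT1G72850, AT1G72860 and AT1G72870 had differences of 0.03 to 0.18, and AT1G72950 of 0.14.

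**Figure D3:**
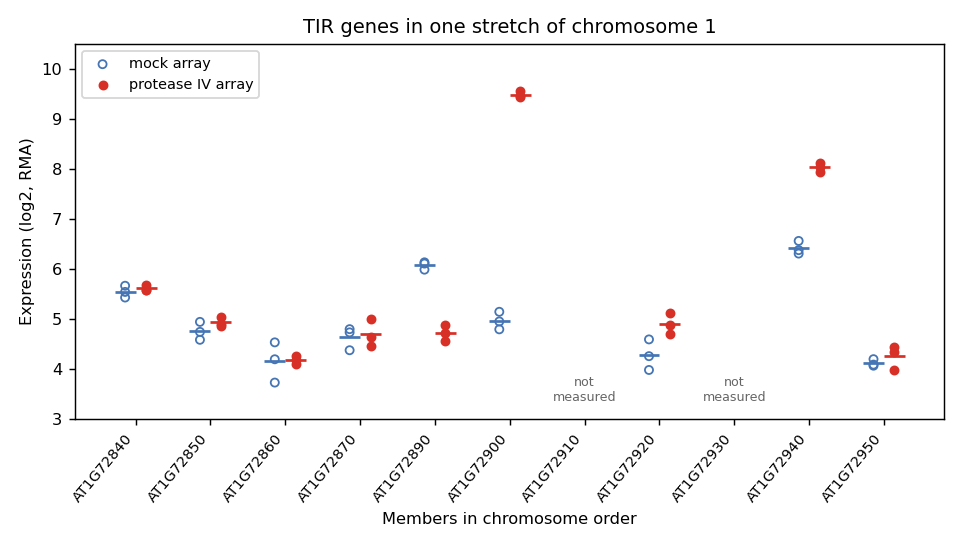
Log2 expression (vertical axis) of the 11 TIR loci from AT1G72840 to AT1G72950 in chromosome order (horizontal axis, not to distance; AT1G72910 and AT1G72930 were not measured), with mock arrays as open blue circles, protease IV arrays as filled red circles and bars at the group means. AT1G72900 rises from a mean of 4.96 to 9.49 next to AT1G72890, which goes from 6.07 to 4.71, while the 4 loci at the left differ by at most 0.18.

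In a second group on chromosome 1, AT1G57630 rose by 4.56 and AT1G57650 by 1.47, and the next member, AT1G57670, differed by -0.04 (limma, adjusted p = 0.821). The adjacent pair on chromosome 3, AT3G04210 and AT3G04220, rose by 2.20 and 0.53. In the triplet on chromosome 5, AT5G18350 differed by 0.03, AT5G18360 by 0.31 and AT5G18370 fell by 0.28. AT1G63870 fell by 0.21, and its neighbour AT1G63880 differed by -0.03. AT1G57830 and AT1G57850 did not pass, at -0.05 and -0.02. AT5G41550 rose by 0.48 next to AT5G41540, which differed by 0.001. Beside AT1G17600, AT1G17615 differed by 0.13, and beside AT5G38340, AT5G38350 differed by 0.11. Both group means of AT5G41540, AT1G17615, AT5G38350, AT1G57830 and AT1G57850 lay under the low-signal level, where a change could be missed. The calls of AT5G18370, AT1G63870, AT5G41550, AT1G17600 and AT5G38340 are those that ended when single arrays were left out. None of the 46 probe sets carries the suffix of sets built to match several transcripts, but TIR genes are close paralogs and some signal shared between them cannot be told apart with these values.

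Gene size and chromosome were set beside the response. The 12 that rose at least 2-fold spanned 713 to 4614 bp in RefSeq (introns included) with a median of 2667, and the 24 that did not pass spanned 516 to 4923 bp with a median of 3267. Chromosome 1 held 7 of the 12, or 58.3%, and 14 of those 24, also 58.3%, against 25.7% of all genes. A mock mean under the low-signal level was found in 3 of the 12 and in 11 of the 24, against 28.9% of all genes. Those 11 also had treated means under that level, where a change could be missed.

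The 3 treated arrays did not read alike in the risen genes. Protease IV replicate 2 gave the lowest treated value in 9 of the 12 genes that rose at least 2-fold, with a median deviation of -0.15 from the group mean. The same array was lowest in 73.9% of the 602 genes that rose at least 2-fold in the whole table, with a median deviation of -0.13. Without it, the rise of AT1G66090 was 6.02, and 19 TIR-domain genes rose, 12 of them at least 2-fold.

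Components that work with TIR proteins were read from further lists drawn up from general knowledge, each with few measured members. Of 10 EDS1-family and helper receptor genes 3 were measured, and 2 rose, where 11.4% of all genes rose. SAG101, a lipase-like partner of EDS1, read 5.06, 5.17 and 5.14 in mock and 7.55, 7.35 and 7.44 after protease IV, a 5.02-fold rise (SE 0.080 on a log2 difference of 2.33; limma, adjusted p = 4.20e-09). AT3G48080 rose by 0.53 (SE 0.13), with a mock mean under the low-signal level and a treated mean barely above it. Its call was lost with limma's treat at 1.2-fold (adjusted p = 0.183). AT5G66890 differed by 0.02, and both its group means lay under the low-signal level, where a change could be missed.

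Of 25 genes for the folding, turnover and modification of intracellular receptors 4 were measured. SGT1A, a co-chaperone of immune receptors, read 8.71, 8.66 and 8.62 in mock and 10.34, 10.28 and 10.25 after protease IV, a 3.09-fold rise (SE 0.071 on a log2 difference of 1.63; limma, adjusted p = 2.88e-08). AT1G14200 rose by 0.97 (SE 0.080). AT1G04300 and AT1G26800 did not pass, at 0.15 and -0.02, and AT1G04300 rose after cyclic loess scaling between arrays (0.34; limma, adjusted p = 0.00868). None of the 12 salicylate-branch genes listed had a probe set naming it alone.

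Among 19 further TIR-type receptor loci that are no members of the list, 5 were measured. AT1G31540 rose by 0.93, AT4G12010 by 0.81 and AT4G19510 by 0.38, AT4G19500 fell by 0.48, and CSA1 did not pass. The mock mean of AT1G31540, 3.67, lay under the low-signal level. AT4G19500 and AT4G19510 stand next to each other in RefSeq's gene order and changed in opposite directions. Both of these calls were lost with limma's treat at 1.2-fold (adjusted p = 0.0918 and 0.319). Intracellular NBS-LRR receptors without a TIR domain gave 8 rises and 1 fall among 25 measured of 52 listed. Over all genes, 11.4% rose and 22.8% fell. Rises of at least 2-fold numbered 3 of the 25, where the background was 4.51%. The rises in that list numbered 4 when limma's treat at 1.2-fold or a filter on the lower quartile was used and 5 with a higher group mean of at least 5, and the falls were 2 without mock replicate 3. AT4G14610 read 5.28, 5.35 and 5.17 in mock and 8.20, 7.91 and 8.31 after protease IV, a difference of 2.87 (SE 0.11; limma, adjusted p = 7.34e-09). AT1G15890 rose by 2.01, AT1G63350 by 1.89, AT3G14470 by 0.73 and CW9 by 0.54, whereas AT5G43740 fell by 0.55, and the other 3 rises were smaller. Mock means of CW9 and of the genes with these 3 smaller rises lay under the low-signal level. The median difference was 0.15, next to 0.14 for the TIR-domain genes, and the difference between both lists was not tested.

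**Figure D4:**
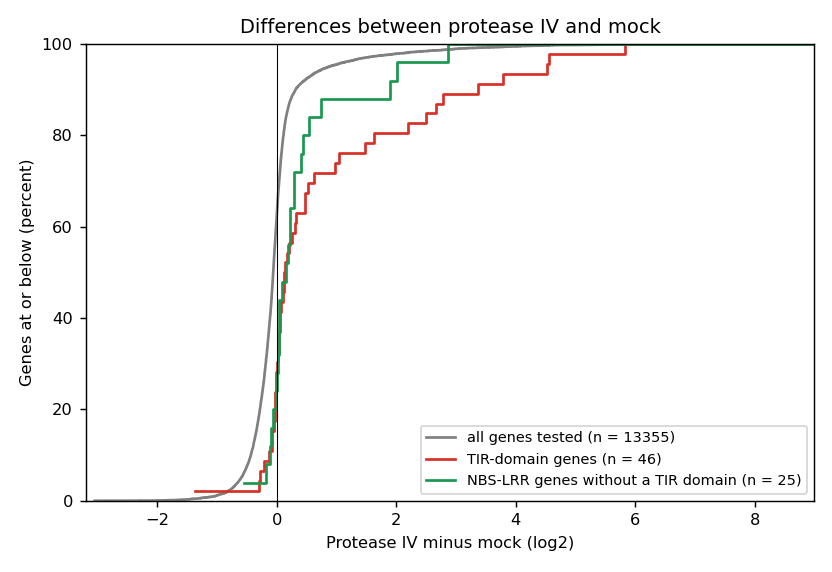
Share of genes (vertical axis, percent) at or below each difference, protease IV minus mock on the log2 scale (horizontal axis), for all 13355 genes, the 46 TIR-domain genes and 25 NBS-LRR genes without a TIR domain. The highest difference was 5.83 in the TIR-domain genes and 2.87 in the other receptor list, and the medians of these 2 lists were 0.14 and 0.15.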

How the data were processed

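The deposited values are log2 expression values made by the authors with robust multi-array averaging (RMA, affy 1.36.1, per the submitters' processing notes), 1 Affymetrix array per sample. RMA corrects background, quantile-normalizes arrays and summarises probe sets, so a change in total mRNA cannot be read; its settings are not given in the sources read. Of 22810 probe sets, 13513 named 1 gene in the platform annotation held by GEO (possibly outdated), and 503 several. Of the former, 13436 were matched to RefSeq (TAIR10.1), which gave locus tags, symbols, spans and gene order. Each gene was represented by its probe set of highest mean across the 6 arrays, leaving 13355 genes.

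Differences, protease IV minus mock, were fitted over all genes with limma 3.58.1 in R 4.3.3 (lmFit, eBayes, no covariates) and adjusted by Benjamini-Hochberg over all genes; tests were two-sided with a threshold of 0.05. Figures were drawn with matplotlib 3.10.9. The number of arrays limits the precision. RNA controls were compared by exact permutation over 20 relabellings. Members past the threshold by at least 1 on the log2 scale were named with every array; others past it with their difference; members that did not pass by range, with neighbours of named genes and the few nearest the threshold or clear of background chosen after their values were seen. Members and lists were chosen with earlier results of these data known. Deviations from group means correlated at 0.04, -0.10 and -0.18 for same-numbered arrays, and at -0.06 to 0.16 for differently numbered ones. These values gave no sign that the numbers pair the samples, but with 3 arrays a group they cannot exclude it. Protein and promoter sequences were not used here.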

Additional observations from a re-analysis of the deposited data

Results flagged for a closer look

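A probe set outside the genes tested stood higher after protease IV by an amount between those of AT1G72900 (4.53) and AT5G44910 (3.79). It names AT5G41740 and AT5G41750 together, neighbouring TIR-type loci of the list that were dropped because no probe set names either alone. It read 4.55, 4.78 and 4.66 in mock and 8.63, 8.50 and 8.58 after protease IV, 3.91 higher on the log2 scale. All treated arrays stood above all mock arrays. The probe set was not in the limma fit, and which of both genes gave the signal cannot be told apart. The other shared probe set of the list, for AT5G46490 and AT5G46260, differed by 0.05, with overlapping groups and both means under 3.97.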

How the results depend on the processing

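Across 17 alternative settings, 15 of the 22 called TIR-domain genes kept their direction and their call wherever they were tested, among them the 12 that rose at least 2-fold and AT1G72890. The other 7 calls, AT1G72920, AT5G41550, AT5G38850, AT1G17600, AT5G38340, AT5G18370 and AT1G63870, were lost in at least 1 setting, 4 genes that did not pass gained a call in at least 1, and none reversed. The count of risen members was 16 to 21 with 1 array left out, 18 with the replicate block, 14 with limma's treat at 1.2-fold and 21 with cyclic loess. With that block AT5G38340, AT5G18370 and AT1G63870 did not pass, although the numbers were not found to pair the samples. Filters that require signal favour risen genes, so their counts are no support. The count that fell was 1 with the replicate block, with a variance trend and with treat, and 1 to 3 with 1 array left out. Either filter on dim genes (higher group mean at least 5, or mean above the lower quartile) also gave 1. Both filters left out AT5G18370 and AT1G63870, so those calls were not tested again there. Over all genes, treat left 974 higher and 884 lower, and cyclic loess gave 2060 higher and 1514 lower, 101 of the latter at least 2-fold, against 1525, 3039 and 156. Calls that were lower made up 66.6% of all calls, 42.4% with cyclic loess and 47.6% with treat. The further lists together had 15 rises and 2 falls, and 9 and 1 with treat, which tests a stricter null. Causes of the other shifts were not tested. Cyclic loess moved the median of all genes from -0.06 to 0.007. Signal near background limits what can be said of dim genes.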
